A study of Mus musculus with 21 samples.

Results

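The genes described here encode the proteasome, the protease that degrades ubiquitin-tagged proteins. They were chosen by symbol: protein-coding mouse genes named Psma, Psmb, Psmc or Psmd followed by a digit, without the immunoproteasome genes Psmb8, Psmb9 and Psmb10. The rule found 37 of the 30519 genes in the deposited count table. Of the 37, 31 encode constitutive subunits: 7 of the alpha ring, 7 of the beta ring, 6 of the ATPase ring and 11 other subunits of the regulatory particle. A further 3 (Psmd5, Psmd9 and Psmd10) encode assembly chaperones that leave the finished particle. Another 2 (Psma8 and Psmb11) encode subunits known from testis and thymus. The remaining 1, Psmc3ip, shares the prefix but encodes a meiotic recombination factor, so it was kept apart from the subunits.

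The core particle is a barrel of stacked rings. The outer alpha rings gate the entrance, and the inner beta rings hold the proteolytic sites of Psmb5 (chymotrypsin-like), Psmb6 (caspase-like) and Psmb7 (trypsin-like). The regulatory particle caps the barrel: its ATPases unfold the substrate, Psmd4 binds ubiquitin chains and Psmd14 removes them before entry. Blood stem cells are known for a low rate of protein synthesis and a strong dependence on protein quality control, and erythroid precursors for heavy protein turnover.

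The 21 low-input bulk RNA libraries came from 2 cell types sorted from mouse bone marrow: blood stem cells (HSC) and the progenitors shared by megakaryocytes and red cells (MEP). In each cell type the mice were wild type (WT) or had an Etv6 allele with P216L, with S211I (written P211I in one label field), or with the pair of them, called double mutant here. Etv6 encodes a transcriptional repressor of the ETS family. Zygosity, age, sex and strain of the mice, and whether each library came from its own animal, are not given in the labels. HSC libraries numbered 3 in WT, P216L and double mutant and 2 in S211I. MEP libraries numbered 3 in P216L and double mutant and 2 in WT and S211I.

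The library labelled HSC S211I replicate 2 is shown apart, because its profile resembled MEP. Its log2 profile correlated with the MEP mean at r = 0.990 over 23250 genes, where the other HSC libraries gave 0.535 to 0.842 (a description across genes). It held 13154016 counts, against 151216 to 2250654 in the other 10 HSC libraries and 3387389 to 12130358 in MEP. The summed level of 9 MEP markers such as Gata1, Klf1 and Tfrc was 741 to 6321 CPM (counts per 1000000) in those 10 HSC libraries, 11773 to 13180 in MEP and 10966 in that library. The summed level of 10 stem cell markers such as Procr, Mecom and Hlf was 1770 to 6095 CPM in HSC, 497 to 818 in MEP and 1081 in that library. Kit, which is in both lists, made up most of the stem cell sum in MEP (median 686 CPM) and in that library (913 CPM). Procr, Mecom and Hlf gave at most 0.886, 2.91 and 1.56 CPM in MEP, and 7.22, 10.8 and 18.2 CPM in that library. Car1 made up most of the MEP marker sum in MEP (median 8556 CPM) and in that library (6992 CPM). Fits below without the 3 HSC libraries nearest to MEP left out S211I replicate 2, P216L replicate 3 and double-mutant replicate 3. These had the 3 highest MEP marker sums among libraries labelled HSC (10966, 6321 and 5459 CPM). By the correlation, double-mutant replicate 1 (r = 0.838) stood above double-mutant replicate 3 (r = 0.832). "HSC" below means the other 10 libraries unless S211I replicate 2 is named. The tests are the exception. Unless a fit is said to leave it out, S211I replicate 2 was in every fit with HSC libraries and entered its estimate of spread.

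Proteasome subunit transcripts took a larger part of the library in MEP than in HSC. The 31 subunits together made up 0.425 to 0.930% of all counts in HSC and 1.03 to 1.24% in MEP, so the cell types did not overlap. In CPM, the sum was 6581 ± 1563 (SD, n = 10) in HSC and 11039 ± 602 (SD, n = 10) in MEP. HSC S211I replicate 2 stood at 10407 CPM, inside the MEP range. In bulk RNA, a change in the kinds of cells sorted and a change in RNA per cell cannot be told apart.

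**Figure D1:**
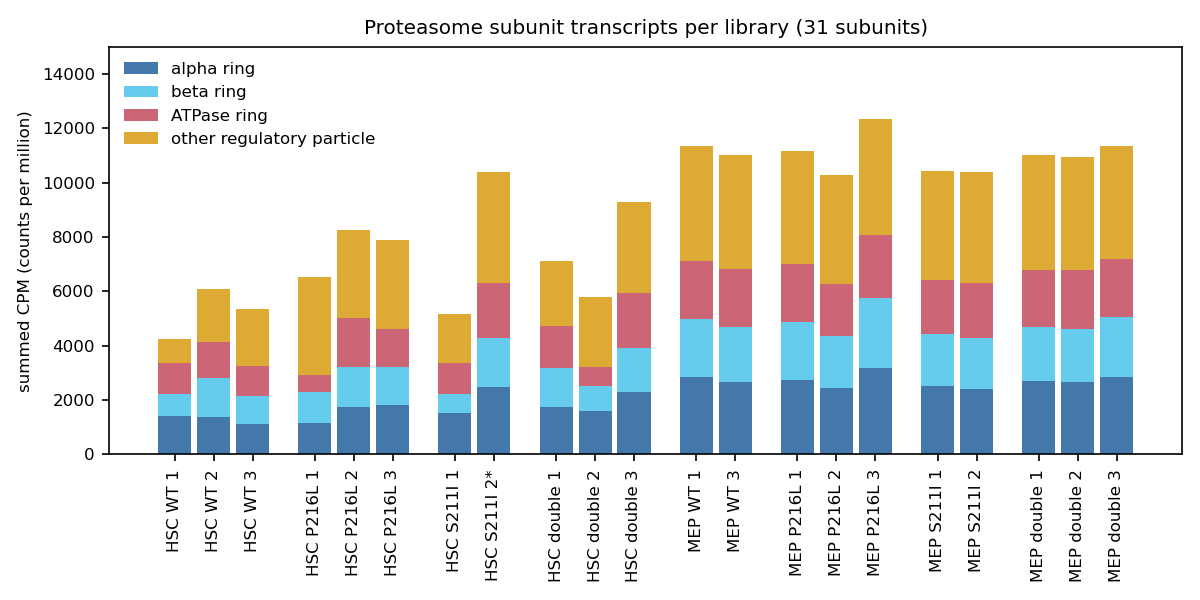
Summed CPM of the 31 constitutive subunits in each of the 21 libraries (bars, stacked by ring or particle; the y axis starts at 0; the asterisk marks the MEP-like library HSC S211I replicate 2). The HSC bars without that library lie between 4252 and 9299 CPM and the MEP bars between 10291 and 12353 CPM.

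By genotype, the 3 WT HSC libraries gave sums of 4252, 6087 and 5366 CPM. The 3 P216L HSC libraries gave 6537, 8262 and 7892 CPM, each above every WT library. S211I replicate 1 gave 5178 CPM, within the WT range. The double-mutant HSC libraries gave 7137, 5794 and 9299 CPM, of which the second lay within the WT range. When the library sizes were scaled by TMM (trimmed mean of M values) factors, the WT sums became 2535, 4544 and 4733 CPM and the P216L sums 4311, 7667 and 8225 CPM. On that scale WT and P216L overlapped, while HSC (2535 to 10187) and MEP (11836 to 14378) did not.

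MEP sums were close to each other. WT gave 11361 and 11019 CPM, P216L 11158, 10291 and 12353, S211I 10437 and 10415, and the double mutant 11035, 10966 and 11359. Both S211I libraries lay below both WT libraries. The highest sum belonged to P216L replicate 3, the shallowest MEP library.

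Each part of the particle was higher on average in MEP. The ratio of regulatory-particle to core-particle CPM was 1.15 to 1.44 in MEP, 0.914 to 1.87 in HSC and 1.42 in HSC S211I replicate 2. The alpha ring summed to 2699 ± 234 CPM in MEP and 1579 ± 342 in HSC, the beta ring to 2071 ± 201 and 1198 ± 321, and the ATPase ring to 2107 ± 104 and 1280 ± 437 (SD, n = 10 libraries each). The 11 other regulatory subunits summed to 4163 ± 93.3 CPM in MEP and 2525 ± 860 in HSC. The 3 assembly chaperones differed less, at 723 ± 46.0 CPM in MEP and 667 ± 318 in HSC.

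Single subunits were far noisier in HSC. The coefficient of variation of a subunit's CPM over libraries ran from 38.7% (Psmb6) to 110% (Psmb7) in HSC, with a median of 59.7%. In MEP it ran from 4.46% (Psmd1) to 13.8% (Psmb3), with a median of 7.82%. All 31 subunits had counts in all 10 MEP libraries, but 16 of 31 had counts in all 10 HSC libraries. The same share was not computed for all genes. The HSC libraries had counts in 3988 to 10280 genes and the MEP libraries in 12723 to 15914. P216L replicate 1 had 9 subunits at 0, WT replicate 1 had 6, WT replicate 2 and S211I replicate 1 had 2 each, and WT replicate 3 had 1, Psmb5. The HSC libraries with subunits at 0 held 151216 to 480419 counts, and those with 837667 to 2250654 counts had none. Among the shallower libraries the numbers did not follow depth. Double-mutant replicate 2, with 369439 counts, had 0 subunits at 0, and P216L replicate 1, with 406024 counts, had 9. Over all genes, these 2 libraries also differed, with counts in 7871 and 3988 genes. The part of depth and of the number of genes with counts was not tested. A count of 0 allows up to 3 counts, which stand for 19.8 CPM in WT replicate 1, the shallowest, and 0.247 CPM in MEP WT replicate 3 (counting error only).

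**Figure D2:**
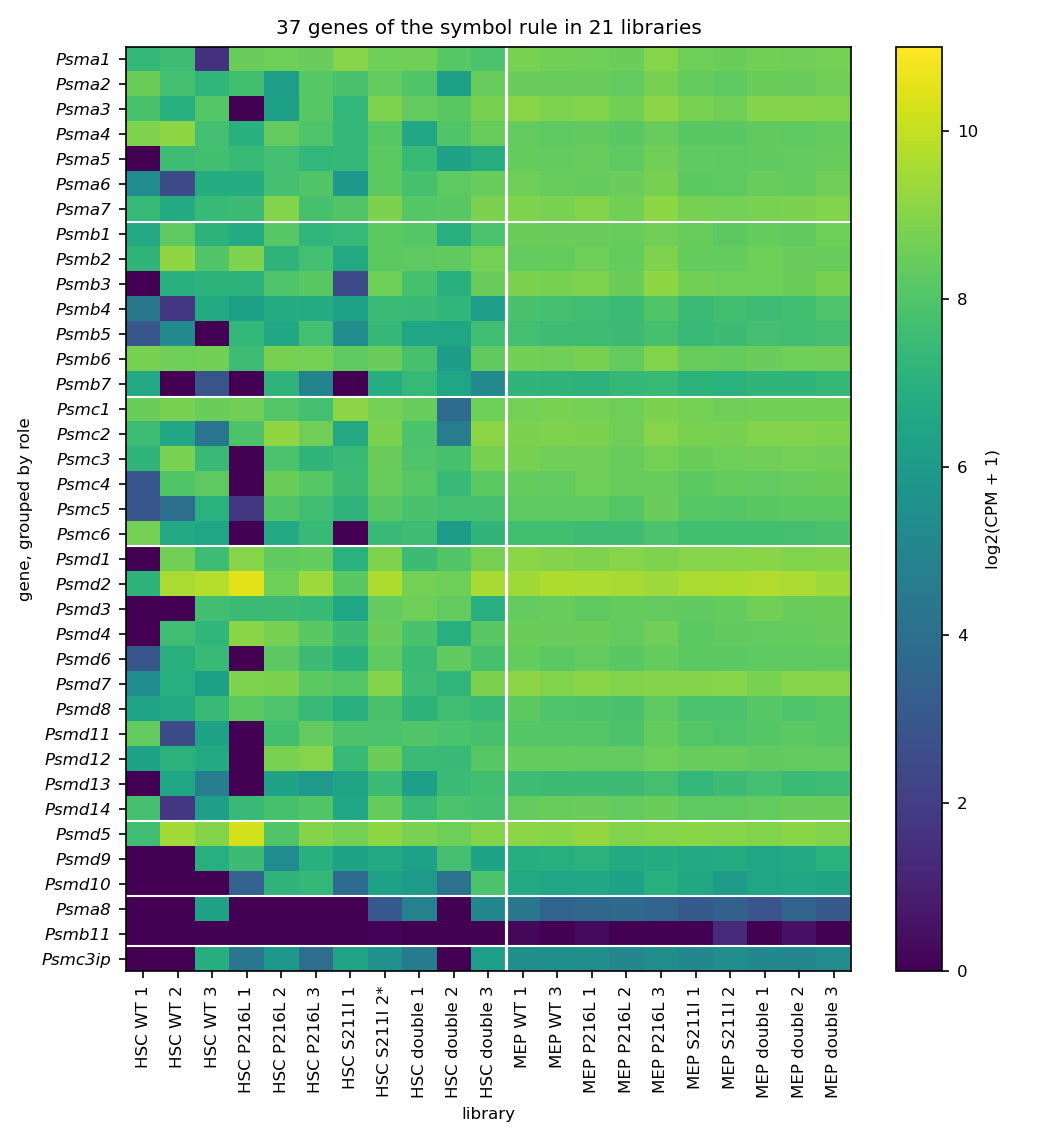
log2(CPM + 1) of the 37 genes (rows, grouped by role with white lines) in the 21 libraries (columns, HSC left and MEP right; the asterisk marks the MEP-like HSC library). The darkest cells are genes with no counts: among the 31 subunits, 9 in HSC P216L replicate 1, 6 in HSC WT replicate 1 and 0 in MEP.

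The median over libraries was higher in MEP than in HSC for 31 of 31 subunits. That share was not computed for all genes, and HSC libraries had counts in fewer genes than MEP libraries. For 5 of the 31 subunits, the lowest MEP library exceeded the highest of the 10 HSC libraries. Among all 12036 genes tested across cell types this held for 3.65%, and the reverse, seen for 0 subunits, for 0.947%. These 5 were Psma5 of the alpha ring (304 to 387 CPM in MEP, 0 to 210 in HSC), Psmb3 (364 to 552 against 0 to 357) and Psmb4 (177.5 to 261 against 2.44 to 177.0) of the beta ring, the ATPase gene Psmc5 (273 to 354 against 2.46 to 257) and the deubiquitinase gene Psmd14 (310 to 371 against 2.44 to 258). Psmb4 was separated by less than 1 CPM, from a double-mutant HSC library.

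Among the catalytic subunits, Psmb6 overlapped between the cell types, and Psmb7 was near 0 in several HSC libraries. Psmb6 gave 423, 375 and 398 CPM in WT HSC, 190, 431 and 416 in P216L HSC, 308 in S211I replicate 1, and 222, 65.0 and 315 in double-mutant HSC, against 330 to 476 in MEP. Psmb7 gave 99.2, 0 and 6.24 CPM in WT HSC, 0, 140 and 30.6 in P216L HSC, 0 in S211I replicate 1, and 167, 89.3 and 37.8 in double-mutant HSC, against 131 to 173 in MEP. Of the 10 HSC libraries, 2 reached the MEP range of Psmb7.

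Levels of different genes were compared per kilobase of coding length, from an annotation of GRCm38. In MEP, the highest per kilobase was Psmb3 in the beta ring (669 CPM per kb, median of 10 libraries), Psma3 in the alpha ring (638), Psmc2 in the ATPase ring (322) and Psmd7, a scaffold partner of Psmd14, in the rest of the regulatory particle (522). The lowest were Psmb7 (176), Psma4 (397), Psmc6 (173) and Psmd13 (165). In HSC, the highest were Psmb6 (483), Psma1 (401), Psmc1 (279) and Psmd7 (240), and the lowest Psmb7 (41.1), Psma6 (219), Psmc6 (88.3) and Psmd13 (67.0). Per kilobase of whole transcript, the MEP extremes of the alpha ring were Psma7 and Psma2 instead, and those of the other 3 groups were unchanged. In HSC the alpha ring extremes also became Psma7 (265) and Psma2 (75.6). Psmd2 (182) replaced Psmd7 (146) there as the highest of the rest of the regulatory particle, and the other HSC extremes were unchanged.

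**Figure D3:**
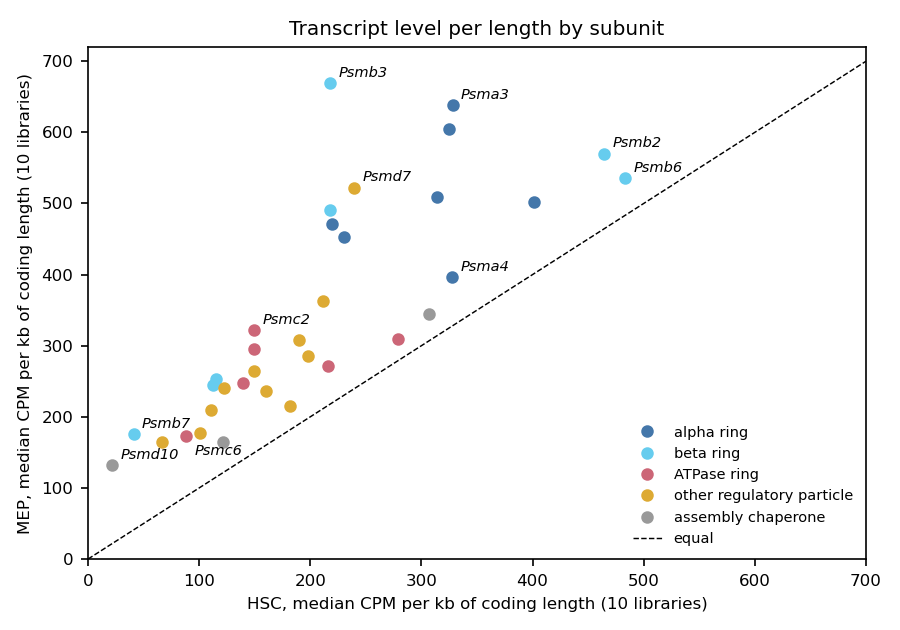
Median CPM per kilobase of coding length in HSC (x axis, 10 libraries) and MEP (y axis, 10 libraries) for the 31 subunits and the 3 assembly chaperones, coloured by role, with the line of equal levels dashed. Psmb3 stands at 218 in HSC and 669 in MEP, and Psmb6 near the line at 483 and 535.

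In wild-type cells, 4 of the 36 genes with enough counts to test were called higher in MEP than in HSC and none lower (11.1% of the members; of all 12036 genes 4.1% were called, 3.62% higher and 0.474% lower). The 4 were Psmd7, Psmb5, the alpha ring gene Psma6, and Psmd10, also known as gankyrin. The fitted log2 fold change was above 0 for all 31 subunits, with a median of 2.19, beside 0.90 for all genes tested. With RLE (relative log expression) size factors it was above 0 for 27 of 31, with a median of 1.55 beside 0.17. At an unadjusted p below 0.05 stood 18 of the 36 members, and 27.8% of all genes. Tests were quasi-likelihood tests in edgeR with Benjamini-Hochberg adjustment over all genes. In the comparisons across cell types, HSC and MEP shared an estimate of spread, although HSC libraries varied far more. The MEP-like HSC S211I replicate 2 was part of that fit.

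Psmd7 gave 39.7, 119 and 72.9 CPM in WT HSC, from 6, 49 and 35 counts, and 549 and 480 CPM in WT MEP. The WT groups did not overlap, and every mutant HSC library lay between them. Its log2 fold change was 3.34 ± 0.72 (SE; edgeR adjusted p = 0.00908).

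Psmb5, the target of the drug bortezomib, gave 6.61, 36.6 and 0 CPM in WT HSC, from 1, 15 and 0 counts, and 206 and 191 CPM in WT MEP. Each mutant HSC library was above all 3: 154, 91.9 and 212 CPM in P216L, 40.7 in S211I replicate 1, and 88.5, 89.3 and 198 in the double mutant. Its log2 fold change between WT MEP and WT HSC was 4.43 ± 1.20 (SE; edgeR adjusted p = 0.0355). The call was lost with RLE size factors (3.67, adjusted p = 0.0793) and with a replicate block (4.75, adjusted p = 0.0518). It was also lost without WT HSC replicate 1 or 3 or without either WT MEP replicate (edgeR adjusted p = 0.0544 to 0.113).

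Psma6 gave 39.7, 4.87 and 112 CPM in WT HSC, from 6, 2 and 54 counts, and 379 and 351 CPM in WT MEP, with no overlap. Its log2 fold change was 3.34 ± 0.96 (SE; edgeR adjusted p = 0.0458). The call was lost with RLE size factors (2.69, adjusted p = 0.0879), after thinning (2.66, adjusted p = 0.0544), and without WT HSC replicate 1 or 2 or either WT MEP replicate (edgeR adjusted p = 0.09 to 0.138).

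Psmd10 had no count in any WT HSC library and 101 and 88.2 CPM in WT MEP. With 3 counts over the summed WT HSC libraries as the floor, 2.88 CPM, its mean in WT MEP was at least 32.8-fold higher (edgeR adjusted p = 0.0144). This bound leaves out the spread between libraries. In the mutant HSC libraries Psmd10 gave 9.85, 140 and 160 CPM (P216L), 13.6 (S211I replicate 1) and 61.6, 16.2 and 239 (double mutant). Of these 7 values, 3 lay under the 19.8 CPM that WT replicate 1 could have missed.

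The number of calls moved with the fit and with single libraries. The Psmd7 call was lost without WT MEP replicate 1 (edgeR adjusted p = 0.0606), and the Psmd10 call without WT HSC replicate 2 (adjusted p = 0.0541). Fitting WT MEP and WT HSC alone left 0 members called, with 31 of 31 subunits still above 0, and an edgeR fit without the low-count filter left Psmd10 alone. Leaving out WT HSC replicate 3 gave 8 calls, WT MEP replicate 1 gave 1, and WT HSC replicate 1, WT HSC replicate 2 or WT MEP replicate 3 gave 2 each. Without the 3 HSC libraries nearest to MEP there were 10 calls, and voom with quality weights gave 18.

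**Figure D4:**
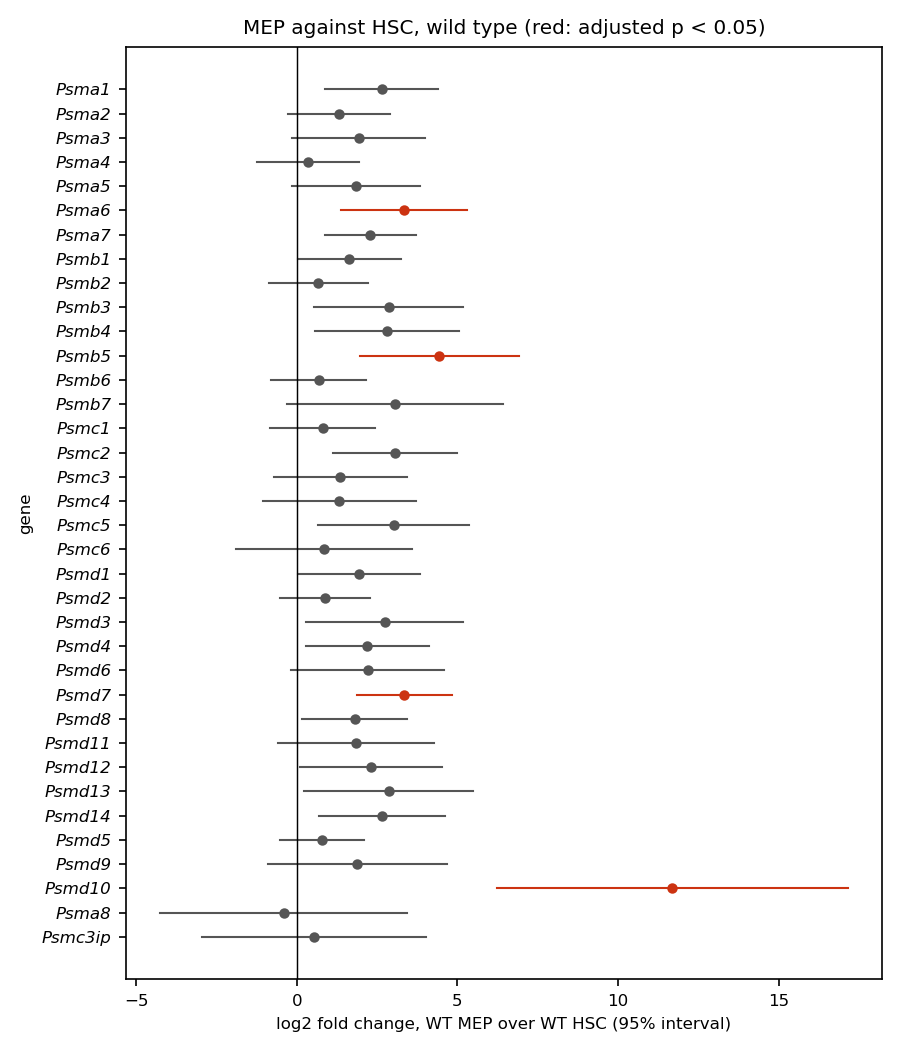
log2 fold change of WT MEP over WT HSC with its 95% interval for the 36 genes tested, in order of role (red: edgeR adjusted p below 0.05). The 31 subunits lie above 0, from 0.35 (Psma4) to 4.43 (Psmb5); the fitted value of Psmd10, at 0 in every WT HSC library, depends on the prior count and is no estimate of its fold.

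Psmb5 and 5 further subunits were on a fixed list of genes to name, and none of the 5 was called here. Psmb6 had a log2 fold change of 0.67 ± 0.73 (SE), and its sign turned with RLE size factors (-0.07) and in DESeq2 (-0.07). Psmb7 had 3.05 ± 1.64, Psmd14 2.66 ± 0.95, Psmd4 2.19 ± 0.93 and Psmc4 1.32 ± 1.16, with edgeR adjusted p of 0.227, 0.0847, 0.128 and 0.493. In plain CPM, 22 of the 31 subunits (35.8% of all genes tested) were higher in both WT MEP libraries than in all 3 WT HSC libraries, and 0 were lower (8.24% of all genes).

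In P216L and double-mutant cells, the same comparison of MEP with HSC called 0 of 36 members. The shares of all genes called were 0.0748% and 0.241%, and 2 and 0 members stood at an unadjusted p below 0.05 in edgeR, against 19.7% and 16.3% of all genes. DESeq2 called 1 (Psma8) and 0. The 31 subunits were all above 0 in both genotypes, with median log2 fold changes of 1.06 in P216L and 0.84 in the double mutant, beside 0.56 and 0.09 for all genes. The smallest p belonged to Psma8 in P216L (edgeR adjusted p = 0.121), whose 3 P216L HSC libraries were at 0, and to Psma5 in the double mutant (1.65 ± 0.90 SE, adjusted p = 0.396). In plain CPM, 14 of 31 subunits were higher in every P216L MEP library than in every P216L HSC library (26.4% of all genes), and 17 of 31 in the double mutant (21.2%). None was lower (4.2% and 9.44% of all genes).

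Whether the genotype effect differed between the cell types was tested as an interaction, mutant against WT in MEP minus the same in HSC. It called 0 of 36 members for P216L (0.0997% of all genes) and 0 for the double mutant (0.0166%), with 4 members each at an unadjusted p below 0.05 in edgeR, against 16.2% and 15.2% of all genes. DESeq2 called 3 (Psmb5, Psmd7 and Psmd10) and 1 (Psmd10). Psmd10 had the smallest p in edgeR, adjusted to 0.138 and 0.144. Without WT HSC replicate 3, Psmd3 and Psmd9 were called in both, and without P216L HSC replicate 1, Psmd10 in the first. Both interactions use the same WT libraries.

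Within HSC, no member was called in any mutant against WT (0 of 36 each). Of all 9471 genes, the P216L comparison called 0.106%, the S211I one 0.0845% and the double-mutant one 0.0739%. At an unadjusted p below 0.05 edgeR gave 3, 2 and 1 members, where all genes gave 12.9%, 8.15% and 10.5%. The 31 subunits had median log2 fold changes of 1.00, 1.37 and 1.21, beside 0.13, 0.43 and 0.44 for all genes, and 24, 28 and 26 of them were above 0. The 3 comparisons share the WT libraries, the shallowest HSC group. The S211I value rests on the MEP-like replicate 2: without it the median was 0.14 and 19 of 31 were above 0.

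In P216L HSC, 6 of 31 subunits were higher in all 3 libraries than in all 3 WT libraries (4.87% of all genes), and 0 were lower (4.69%). They were Psmd7, Psmb5, Psmc2, Psmd4, Psma1 and Psma7. Psmd4 gave 532, 424 and 289 CPM in P216L HSC and 0, 197 and 152 in WT HSC. Psmd7 gave 468, 451 and 300.0 CPM in P216L HSC. These groups did not overlap, but the log2 fold changes of 1.84 ± 1.24 for Psmd4 and 2.48 ± 1.20 for Psmd7 (SE) did not pass (edgeR adjusted p = 0.58 and 0.376). Psmb5 stood at 3.57 ± 2.16 (adjusted p = 0.484).

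In double-mutant HSC, 9 subunits were higher in all 3 libraries than in WT (11.3% of all genes) and 1, Psmb6, was lower (3.93%). The higher ones were Psma1, Psma3, Psma6, Psma7, Psmb5, Psmc5, Psmd6, Psmd7 and Psmd12. Psmb6 had a log2 fold change of -0.66 ± 1.06 (SE, edgeR adjusted p = 1). Psmb5 stood at 3.43 ± 2.15 (edgeR adjusted p = 0.612), Psmd14 at 1.52 ± 1.5, Psmd4 at 1.08 ± 1.21, Psmb7 at 1.97 ± 2.36 and Psmc4 at 0.60 ± 1.25. In P216L the last 2 stood at 1.19 ± 2.31 and 0.36 ± 1.25, Psmd14 at 1.48 ± 1.5 and Psmb6 at 0.02 ± 1.05. The smallest p in HSC was that of Psmd10 in each mutant (edgeR adjusted p = 0.339, 0.599 and 0.468), which DESeq2 called in P216L and in the double mutant. Psmd3 was called in S211I by voom with quality weights.

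Markers of MEP also varied in level among the HSC libraries. Their summed level was 741, 1799 and 3283 CPM in WT HSC, 2552, 3867 and 6321 in P216L, 3371 in S211I replicate 1, and 4932, 3197 and 5459 in the double mutant. The libraries ranked as by their subunit sums within the double mutant, but not within WT or P216L. Stem cell markers gave 3478 to 6095 CPM in WT, 1823 to 3344 in P216L and 1770 to 3651 in the double mutant. All 9 MEP markers and all 10 stem cell markers had counts in each of these groups. Depth also differed, with 151216 to 480419 counts in WT HSC, 406024 to 850136 in P216L and 369439 to 2250654 in the double mutant. The part of marker level and depth in the subunit values was not tested.

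RNA of markers of other cell types was found in the HSC libraries, each sum carried by a few genes. Neutrophil and monocyte markers (6 genes) summed to 295 to 807 CPM in WT, 358 to 1559 in P216L and 723 to 2257 in the double mutant, against 4.84 to 151 in MEP. Lyz2, S100a8 and S100a9 carried the HSC sums, with medians of 314, 101 and 198 CPM in HSC and 7.04, 1.67 and 1.73 in MEP. The other 3 had higher medians in MEP: Mpo 8.06 CPM in HSC and 21.6 in MEP, Elane 0 and 3.57, and Csf1r, at 0 in all 10 HSC libraries, 1.37 in MEP. Endothelial and stromal markers (6 genes) summed to 225 to 2254 CPM in WT HSC and 0 to 10790 in P216L HSC. In P216L HSC, 3 of the 6 were at 0 in every library. The sum was 1371 CPM in S211I replicate 1. In double-mutant HSC it was 0, 0 and 2043 CPM, with 5 of the 6 genes at 0 in every library. The highest value was that of P216L replicate 1, the library with 9 subunits at 0, where Col1a2 alone gave 9007 CPM. Megakaryocyte markers summed to at most 376 CPM in HSC, and B cell markers to at most 244. In the T and NK cell list, the highest HSC sum, 185 CPM in WT replicate 1, was Nkg7 alone, while Cd3g and Gzma were at 0 in all 10 HSC libraries and Cd3e in 9. The part of these markers in the subunit values was not tested.

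Within MEP, where libraries were deep, the mutants stayed close to WT. No member was called (0 of 36 in each). Of all 10773 genes, the P216L comparison called 0.0%, the S211I one 0.0% and the double-mutant one 0.102%. edgeR gave 0, 4 and 1 members at an unadjusted p below 0.05, against 5.12%, 4.74% and 5.24% of all genes, and DESeq2 called 0 in each. The median log2 fold change of the 31 subunits was 0.00, -0.16 and -0.03 in the same order, beside 0.01, 0.00 and 0.01 for all genes. The 95% intervals of the 31 subunits together spanned -0.40 to 0.49 for P216L, then -0.59 to 0.30 and -0.47 to 0.36 for S211I and both changes, with standard errors of 0.11 to 0.17.

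**Figure D5:**
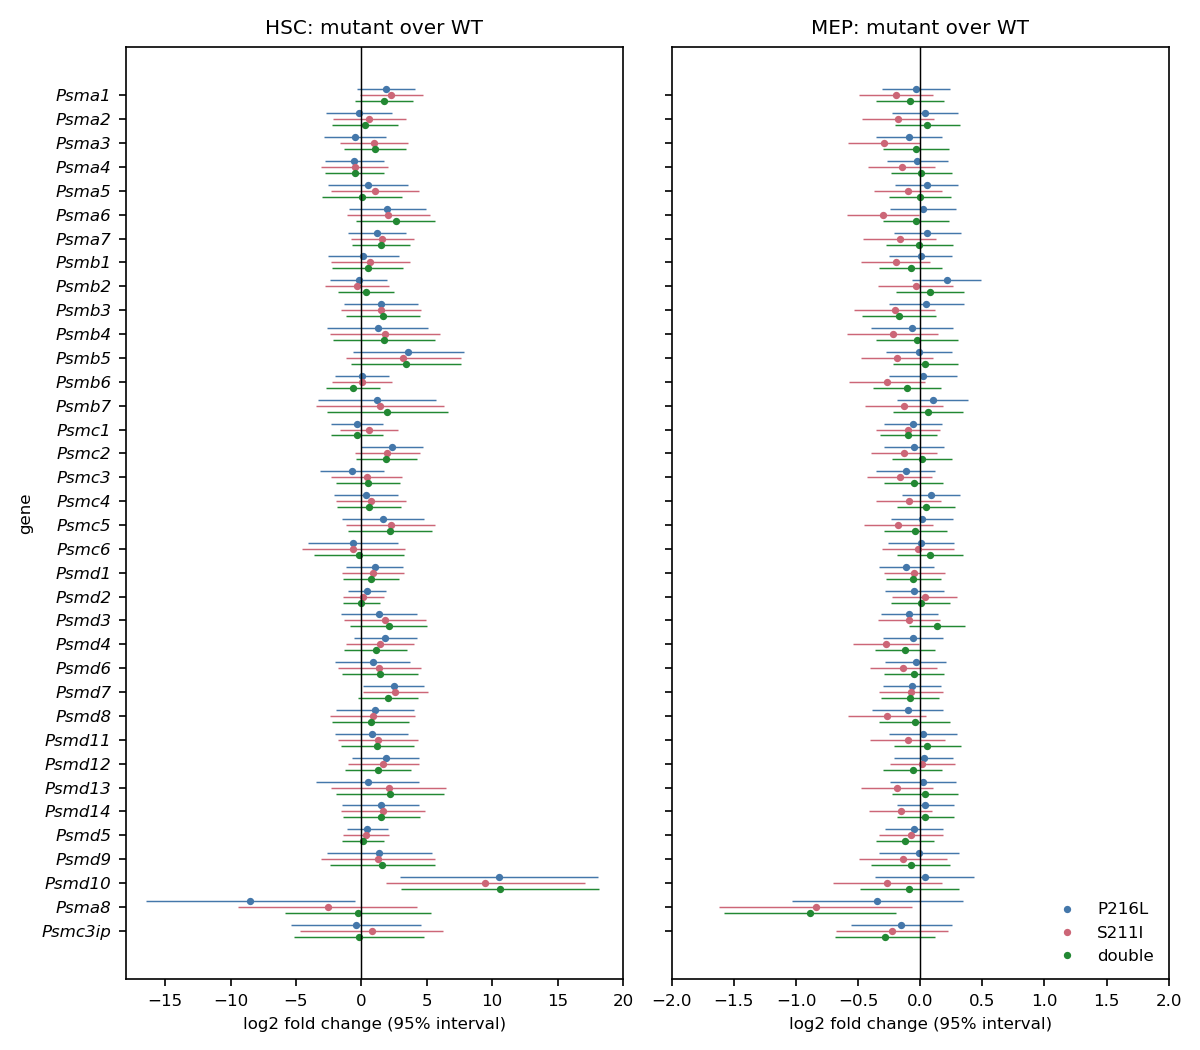
log2 fold change of each mutant over WT with its 95% interval for 36 genes, in HSC (left, axis from -18 to 20) and in MEP (right, axis from -2 to 2). The MEP estimates of the 31 subunits lie between -0.30 and 0.21, and those of S211I lie mostly left of 0; the HSC fit of S211I includes the MEP-like library.

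In S211I MEP, 29 of the 31 subunits had a log2 fold change below 0, and 22 of 31 were lower in both libraries than in both WT libraries in plain CPM (15% of all genes), while 2 were higher (21.8%). Psma6, the lowest at -0.30 ± 0.14, gave 298 and 309 CPM in S211I and 379 and 351 in WT. Psmd4, at -0.28 ± 0.13, gave 303 and 320 CPM in S211I and 373 and 362 in WT. Psmb6, at -0.27 ± 0.15, gave 346 and 335 CPM in S211I and 401 and 397 in WT. These pairs did not overlap, and none passed (SE; edgeR adjusted p = 0.939 for each). Blocking on replicate number moved the S211I median to -0.07.

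The other 4 of these 6 subunits in S211I MEP stood at -0.19 ± 0.14 (Psmb5), -0.13 ± 0.15 (Psmb7), -0.16 ± 0.12 (Psmd14) and -0.09 ± 0.12 (Psmc4), on the log2 scale with SE. In plain CPM, 1 subunit (Psmc4) was higher in every P216L library than in both WT libraries (10.7% of all genes) and 0 were lower (6.94%). In the double mutant 3 were higher (Psmb2, Psmd3 and Psmd11; 13.8%) and 5 lower (Psmb6, Psmc1, Psmc5, Psmd4 and Psmd12; 11%). In P216L MEP the 6 stood between -0.06 (Psmd4) and 0.10 (Psmb7), and in the double mutant between -0.12 (Psmd4) and 0.06 (Psmb7). The smallest p among higher members belonged to Psmb2 in P216L (0.21 ± 0.13, edgeR adjusted p = 0.984), Psmd2 in S211I (0.03 ± 0.13, adjusted p = 0.986) and Psmd3 in the double mutant (0.13 ± 0.11, adjusted p = 0.999).

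Among lower members the smallest p in MEP was that of Psma8, the alternative alpha subunit of male germ cells. It gave 19.7 and 10.6 CPM in WT MEP, 7.67 and 9.47 in S211I, 12.2, 12.5 and 10.9 in P216L, and in the double mutant 6.45, 10.5 and 7.31. All S211I and double-mutant values lay below both WT values, and the log2 fold changes of -0.84 ± 0.37 and -0.89 ± 0.33 (SE) did not pass (edgeR adjusted p = 0.939 and 0.881). In HSC it had counts in 3 of 10 libraries, at 27.6, 32.9 and 79.1 CPM. Psmb11, the thymus subunit, was at 0 in all 10 HSC libraries and at most 1.46 CPM in MEP, where 4 of 10 libraries had counts, and it was not tested.

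Psmd5 and Psmd9, the other chaperones of ATPase-ring assembly, were not called in any comparison by edgeR with all libraries. Psmd5 gave 198 to 1219 CPM in HSC and 480 to 586 in MEP, and Psmd9 96.0 to 131 in MEP, with counts in 8 of 10 HSC libraries. Psmc3ip gave 0 to 116 CPM in HSC and 32.6 to 43.6 in MEP.

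Promoters are shown because Etv6 binds ETS motifs and the fitted values of the subunit genes, with TMM factors, had 1 sign between the cell types. With RLE size factors not all of them kept it (Psmb6 at -0.068 in WT). These differences between cell types were not a test of Etv6. RefSeq windows of 300 bases (250 before to 50 after the start, GRCm38.p6) matched 30 of the 37 members, 25 of them subunits. The ETS letters CCGGAAGT, on either strand, were in 6 of the 25 (24%), beside 5.69% of 17492 protein-coding genes. The shorter CCGGAA, which the longer motif contains, was in 14 of 25 (56%, beside 20.9%). CCAAT was in 10 of 25 (40%, beside 42.3%), the antioxidant response core TGACNNNGC in 4 of 25 (16%, beside 14.8%: Psmb5, Psmb6, Psmc6 and Psmd12) and the nuclear respiratory factor 1 letters GCGCATGC in 2 of 25 (8%, beside 3.94%). A match is a description of letters, not a binding site.

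The 6 with the ETS letters and the 2 called genes Psmb5 and Psmd10 are shown from 100 bases before to 30 after the start, 5′ to 3′ in gene direction. Capitals mark CCGGAAGT (reverse ACTTCCGG), CCAAT (reverse ATTGG) and TGACNNNGC. Psma6 is shown at chr12:55398725-55398854 (+, the second of 2 windows; the first has CCAAT letters and no CCGGAAGT), Psmc1 at chr12:100110102-100110231 (+), Psmc2 at chr5:21786647-21786776 (+, the second of 2 windows), Psmd6 at chr14:14120916-14121045 (-), Psmd12 at chr11:107479428-107479557 (+), Psmd13 at chr7:140882294-140882423 (+), Psmb5 at chr14:54617966-54618095 (-) and Psmd10 at chrX:140956682-140956811 (-).
Psma6: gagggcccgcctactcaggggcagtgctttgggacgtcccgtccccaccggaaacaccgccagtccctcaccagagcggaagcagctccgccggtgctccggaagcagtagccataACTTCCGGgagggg
Psmc1: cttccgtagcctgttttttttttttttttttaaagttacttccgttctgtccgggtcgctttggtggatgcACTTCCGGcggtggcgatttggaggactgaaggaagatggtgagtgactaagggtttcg
Psmc2: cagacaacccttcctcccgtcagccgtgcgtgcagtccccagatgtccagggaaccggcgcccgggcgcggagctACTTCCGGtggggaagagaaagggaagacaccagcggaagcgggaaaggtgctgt
Psmd6: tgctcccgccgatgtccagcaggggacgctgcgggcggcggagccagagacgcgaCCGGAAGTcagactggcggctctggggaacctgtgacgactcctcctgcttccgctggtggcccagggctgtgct
Psmd12: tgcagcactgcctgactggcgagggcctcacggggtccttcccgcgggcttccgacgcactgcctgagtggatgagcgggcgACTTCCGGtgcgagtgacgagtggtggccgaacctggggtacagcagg
Psmd13: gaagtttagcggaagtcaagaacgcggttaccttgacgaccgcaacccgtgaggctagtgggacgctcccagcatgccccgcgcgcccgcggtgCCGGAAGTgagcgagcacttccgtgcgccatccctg
Psmb5: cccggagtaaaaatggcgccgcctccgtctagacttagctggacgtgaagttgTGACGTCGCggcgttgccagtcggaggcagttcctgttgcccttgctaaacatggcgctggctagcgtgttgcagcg
Psmd10: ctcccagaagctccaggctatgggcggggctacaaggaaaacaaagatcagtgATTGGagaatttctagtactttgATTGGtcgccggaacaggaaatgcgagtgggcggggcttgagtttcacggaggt
In Psma6 the ETS letters lie after the start, in Psmd13 across it, and in the other 4 before it. Psmb5 has the antioxidant response core and no full ETS letters in its window, and Psmd10 has reverse CCAAT letters at 2 places in the stretch shown. Psmd7 had no window.

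The values of the 6 subunits with the ETS letters overlapped those of the rest. Between WT MEP and WT HSC their log2 fold changes had a median of 2.58 (0.80 to 3.34), against 1.92 (0.35 to 4.43) for the 19 other subunits with a window. In S211I MEP against WT the medians were -0.13 and -0.18, in P216L MEP -0.01 and 0.00, and in double-mutant MEP -0.04 and -0.01. No test was made of these differences.

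Most other genes of the ubiquitin-proteasome pathway had values above 0 in WT MEP against WT HSC, as did most of all genes tested, and few were called. Of 40 listed, 39 were tested, and 2 were called higher in WT MEP than in WT HSC (5.13%, beside 4.1% of all genes): Adrm1, a ubiquitin receptor on the regulatory particle, and Txnl1, a thioredoxin bound to it. Adrm1 gave 0, 0 and 10.5 CPM in WT HSC and 296 and 317 in WT MEP, with a log2 fold change of 6.70 ± 1.20 (SE; edgeR adjusted p = 0.00262). Mutant HSC libraries held 92.8 to 538 CPM of it. Txnl1 gave 192, 202 and 148 CPM in WT HSC and 589 and 526 in WT MEP (2.32 ± 0.59 SE; edgeR adjusted p = 0.0268). Of the 39, 33 had a log2 fold change above 0, in a fit where the median of all genes tested was also above 0.

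The immunoproteasome genes, left out of the members, had values below 0 and did not pass. Psmb8 gave 112 to 497 CPM in HSC and 74.3 to 128 in MEP, and the log2 fold changes in WT were -1.12 ± 0.95 for Psmb8, -0.80 ± 1.38 for Psmb9 and -0.68 ± 1.45 for Psmb10 (SE; edgeR adjusted p = 0.474, 0.762 and 0.811). The ubiquitin gene Ubb gave 3873 to 9586 CPM in HSC and 2192 to 3392 in MEP, with no overlap in plain CPM, but a log2 fold change of -0.13 ± 0.32 in the WT fit with TMM factors (edgeR adjusted p = 0.843). Pomp, which drives core assembly, stood at 2.65 ± 0.95 (adjusted p = 0.0847). Nfe2l1, which induces subunit genes when the proteasome is inhibited, gave 0 to 162 CPM in HSC and 30.1 to 60.4 in MEP, and Nfe2l3 was at 0 in 9 of 10 libraries of each cell type. Within HSC and within MEP, 0 of the 39 were called in any mutant.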

How the data were processed

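RNA from sorted bone marrow cells was made into cDNA with a low-input kit, per the labels' protocols. The authors deposited 1 table of estimated counts per Entrez gene (30519 genes, 21 libraries). FastQC, Salmon and GRCm39 are named in the submitters' processing notes; their settings are not given in the sources. Of the values, 6.09 to 33.07% per library were not whole, and they were rounded for the tests. Symbols came from RefSeq (30211 matched; the 308 others held 0.0442% of counts). Shared reads between near-identical copies could not be checked.

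CPM were computed over deposited totals. edgeR 4.0.16 (R 4.3.3; TMM, filterByExpr with a minimum count of 10 and total of 15, robust quasi-likelihood fit, Benjamini-Hochberg threshold 0.05) was fitted on all genes: HSC alone (9471 genes), MEP alone (10773) and both together for MEP against HSC and interactions (12036). There were 11 comparisons. Intervals are 95%. DESeq2 1.42.0 and limma 3.58.1 gave alternatives, and the fits were tested on simulated data. Library pairs within a group differed beyond counting noise (chi-square per degree of freedom 4.63 to 88.2 over 18 pairs), so none was merged. Separate animals are not stated, so p-values measure only the spread between these samples.

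The members and lists were chosen with earlier results of these data known. Named genes were Psmb5, Psmb6, Psmb7, Psmd14, Psmd4 and Psmc4, called members, the member of smallest p in each direction where none was called, members at 0 throughout a group, and the extremes per coding length; others were named after their values were seen. Coding lengths and promoters are of GRCm38, and levels per length do not use the authors' transcript models.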

Additional observations from a re-analysis of the deposited data

How the results depend on the processing

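Of the recomputed counts of called members, 137 stayed within 1.5 times the reported one and 22 moved. For WT MEP against WT HSC, reported at 4, the count was 2 with RLE size factors, 1 without the low-count filter, 18 with voom, 3 (Psmb5, Psmd7 and Psmd10) after thinning to the lowest library, 0 with only those groups, 10 without the 3 HSC libraries nearest to MEP (chosen after seeing the data), and 1 to 8 leaving out 1 library. For P216L MEP against HSC, it was 1 in DESeq2, 1 with only those groups, 2 without those 3 libraries and 0 to 1 leaving out 1. DESeq2 gave 1 for P216L HSC, 1 for double-mutant HSC, 3 and 1 for the interactions, and voom 1 for S211I HSC. Leaving out 1 library gave 0 to 2 for each interaction.

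Psmb6 in P216L HSC turned to -0.24 (RLE), -0.12 (no filter), -0.24 (DESeq2), -0.049 (replicate block), -0.067 (only those groups), -0.086 (thinned), -0.29 (without those 3 libraries) and -0.24 to 0.32 leaving out 1 library. Psmb6 in WT MEP against HSC turned to -0.068 with RLE and -0.068 in DESeq2. Leaving out 1 library, the log2 values ran in P216L HSC from -0.61 to 4.12 (Psmb7) and -0.27 to 0.99 (Psmc4), and in double-mutant HSC from -0.0063 to 1.22 (Psmc4). In P216L MEP they ran from -0.092 to 0.055 (Psmb5), -0.097 to 0.16 (Psmb6), -0.0017 to 0.089 (Psmd14), -0.12 to 0.017 (Psmd4) and -0.76 to 0.17 (Psma8). In double-mutant MEP they ran from -0.023 to 0.11 (Psmb5) and -0.00023 to 0.098 (Psmc4). Psma8 ran from -7.38 to 6.03 in S211I HSC and -0.37 to 9.71 in the P216L interaction, Psmd2 from -0.061 to 0.14 in S211I MEP, and Psmb6 from -0.085 to 0.91 in the double-mutant interaction. The cause was not tested.

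No pairing by replicate number was seen among the groups of 3 libraries. Same-number deviations within a cell type correlated at -0.0602 to 0.0509 over 12 pairs, beside -0.0951 to 0.114 over 24 different-number pairs. Between the cell types they correlated at -0.0688 to 0.0416 over 18 same-number pairs. WT MEP and both S211I groups had too few libraries for this check, which cannot exclude shared animals. The replicate block gave 3 calls for WT MEP against WT HSC, losing Psmb5 (log2 fold change 4.75, edgeR adjusted p = 0.0518), and turned Psmb5 in P216L MEP to 0.020, Psmd2 in S211I MEP to -0.021 and Psma8 in S211I HSC to 3.08. With TMM sizes, mean summed CPM moved to 3937 (WT HSC), 13186 (WT MEP), 13057 (P216L MEP), 11971 (S211I MEP) and 12957 (double-mutant MEP).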
